A study of Mus musculus with 6 samples.

Results

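The transcripts of 51 mitosis genes were examined in the RAW264.7 line, in 3 libraries with the label E4BP4 knockout, called knockout-labelled below, and 3 control libraries. The genes were taken from a list of kinases, cyclins, checkpoint proteins, kinesins, kinetochore proteins, condensins and cytokinesis factors, and all 51 were found by symbol among the 25124 symbols of the deposited table. RAW264.7 is a mouse macrophage-like line, and E4BP4, the bZIP repressor encoded by Nfil3, is the targeted gene. Both groups were untreated cells grown in medium with 25 mM glucose and used below passage 15. The sources used here do not state the editing method, the number of clones behind the knockout or the origin of the replicates. The p-values therefore set the difference between groups only against the spread of these libraries within a group, and that spread may be technical.

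Division of a cell is driven by cyclin-dependent kinase 1, which is activated by cyclins and the CDC25 phosphatases and is followed by the Polo-like and Aurora kinases. Kinetochores attach chromosomes to the spindle, the checkpoint holds anaphase until all are attached, and the anaphase-promoting complex then destroys securin and the B-type cyclins. Motor proteins and the chromosomal passenger complex complete the separation of the daughter cells. Transcripts of these genes are made mainly in late cell cycle phases, from promoters that the MuvB complex, B-MYB and FOXM1 are known to bind, and they are abundant in dividing lines.

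Levels are in TPM, a read number scaled by transcript length and by library, so that different genes can be set side by side. Whole reads recovered from the TPM steps came to between 18373052 and 19867732 per library under the knockout label and between 15615639 and 18110568 in the controls, and each of the 51 genes rested on at least 280 reads in every library. Nfil3 itself measured 104.6, 104.0 and 99.8 TPM in the knockout-labelled libraries, against 29.5, 29.9 and 31.0 TPM in the controls (log2 fold change 1.74, SE 0.0393, adjusted p = 4.96e-09). The targeted transcript was thus higher under the knockout label, against what a loss of transcript would give. TPM for a whole gene does not reveal a changed coding sequence, and every direction below rests on the labels. All 10 macrophage markers examined, among them Spi1, Cd68 and Csf1r, passed the filter on low values (5 lower, 3 higher), with a summed level of 4317 to 4463 TPM in the knockout-labelled libraries and 3153 to 3412 TPM in the controls. The 9 fibroblast and epithelial markers summed to at most 1.05 TPM in a knockout-labelled library and 1.25 TPM in a control. For the 9 lymphoid and endothelial markers the sums reached 0.746 TPM in a knockout-labelled library and 0.922 TPM in a control.

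Mitosis genes were mostly lower in the knockout-labelled libraries, by modest amounts, and they did not fall evenly. Of the 51, 34 fell, 2 rose and 15 did not pass in limma on log2(TPM + 1) at an adjusted p under 0.05. Of all 11257 genes tested, 50.1% passed, made up of 23.4% that fell and 26.7% that rose. The median log2 fold change was −0.27 over the 51 genes and 0.02 over all genes tested. Cdc20, Aurka, Cenpf, Kif20a, Ube2c and Nuf2 each fell by at least 0.5 on the log2 scale, as did 5.59% of all genes tested. Kif4, at −0.49997, lay just short of that limit. None of the 51 rose by at least 0.5, against 5.29% of all genes. Mki67, Top2a, Foxm1 and 4 of the 5 checkpoint signalling genes did not pass, though Top2a and, of those 4, Mad2l1 passed under some alternatives. Kif18a and Ndc80 were the 2 that rose. In these bulk libraries, fewer cells in a phase of the cycle and less RNA per cell cannot be told apart.

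**Figure D1:**
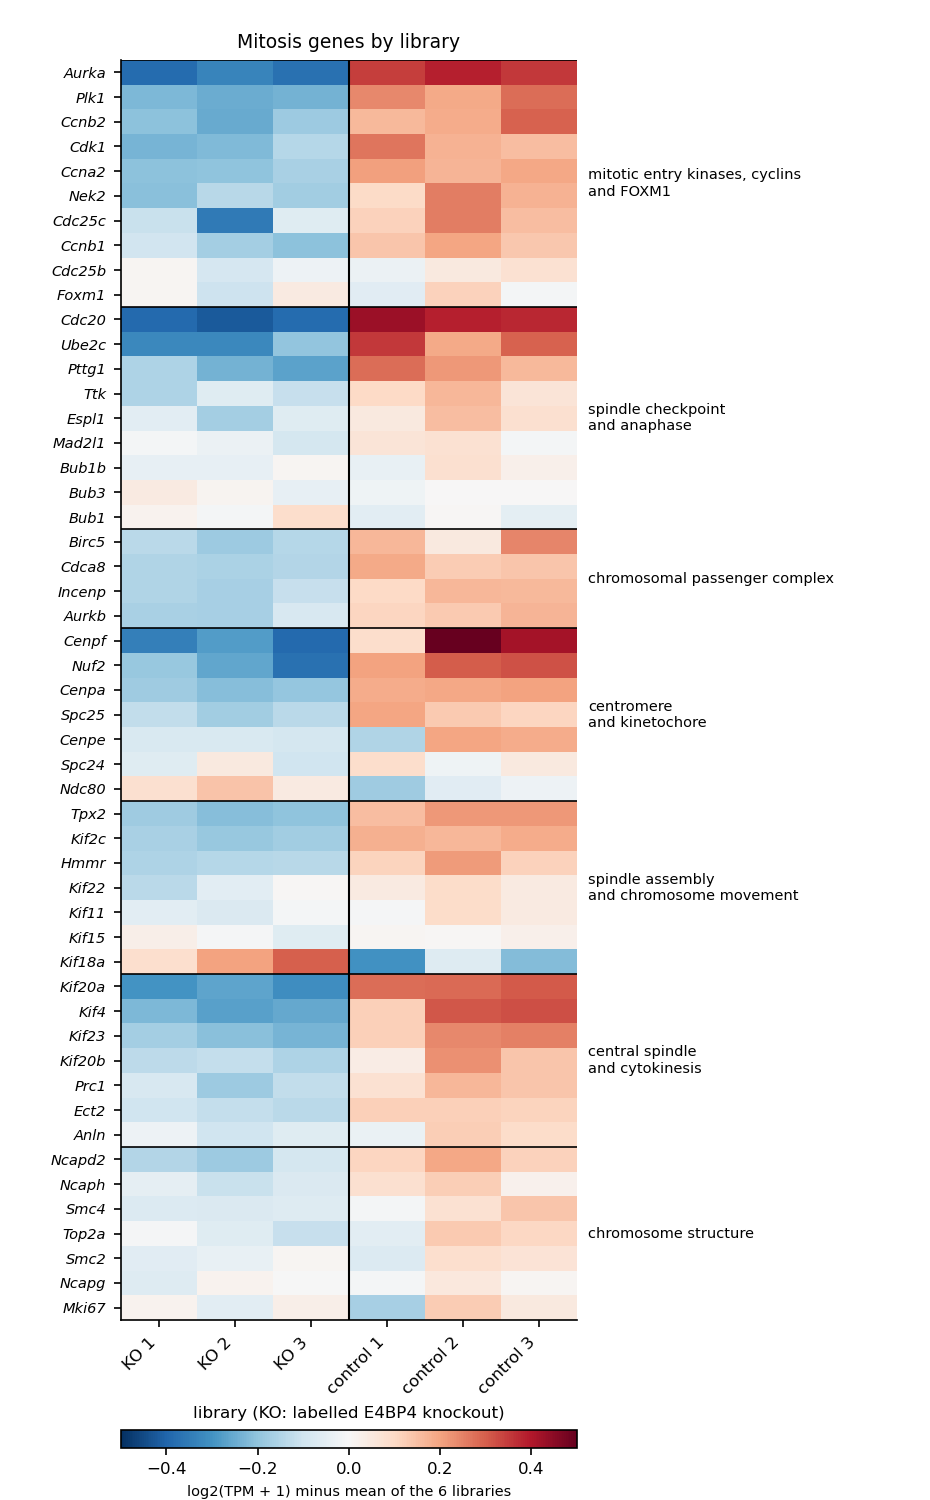
Level of each of the 51 mitosis genes (rows, grouped by role) in each library (columns, knockout-labelled at left), as log2(TPM + 1) minus the mean of the 6 libraries; red is above that mean and blue below it. Aurka, Cdc20 and Kif20a are blue in all 3 knockout-labelled libraries and red in all 3 controls, Kif18a runs the other way, and Mki67, Bub3 and Foxm1 show no block of colour.

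All 51 genes passed the filter of at least 1 TPM in at least 3 libraries, and each exceeded 1 TPM in all 6. Their TPM summed to 3099 to 3145 in the knockout-labelled libraries and 3666 to 3791 in the controls. In 35 genes every knockout-labelled library was below every control, against 27.2% of all genes tested, and in 2 every one was above, against 31.3%. The 35 are the 34 that fell and Kif11. The authors' deposited table, from their own comparison headed WT vs. TG with TG read here as the group labelled knockout, gave 37 of the 51 lower and 2 higher at its adjusted p under 0.05, with a median log2 fold change of −0.29. Of the 10734 genes tested here that had a log2 fold change there, 22.7% were lower and 23.3% higher. Nfil3 stood at 1.76 in the authors' deposited table, so its sign runs as knockout minus control.

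**Figure D2:**
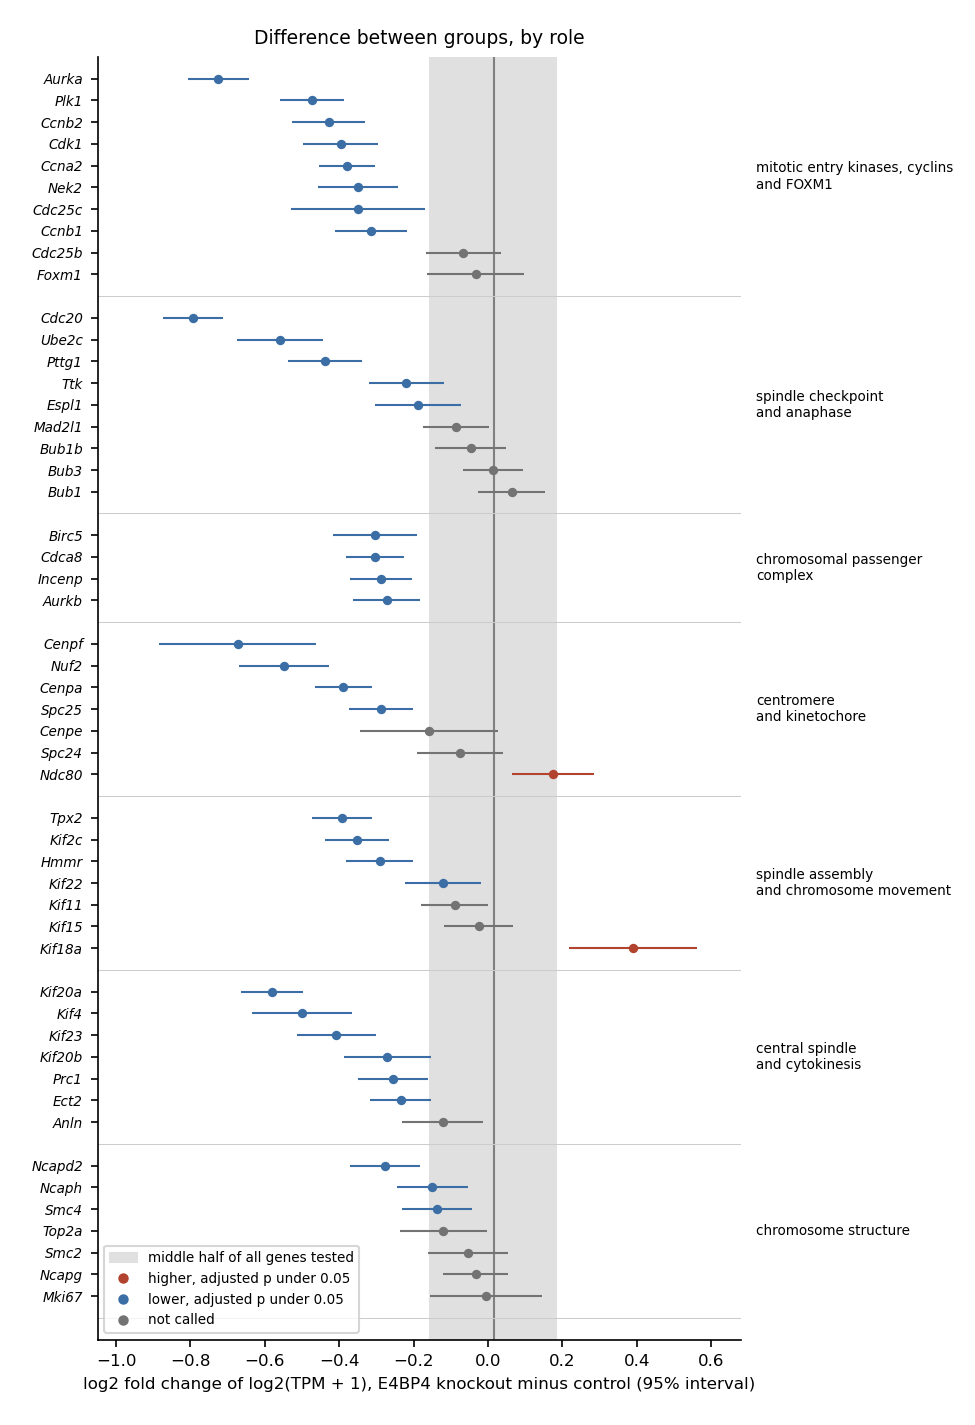
Log2 fold change of log2(TPM + 1), knockout-labelled minus control, for each of the 51 genes with its 95% interval from limma, grouped by role; blue genes were lower and red genes higher at an adjusted p under 0.05, and grey genes did not pass. The grey band runs between the quartiles of all genes tested (−0.16 and 0.18) and the line marks their median. Genes of the chromosomal passenger complex sit close together, between −0.30 and −0.27, while kinetochore genes spread from −0.67 to 0.18.

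Promoter sequence was examined because genes of this class are known to share the cell cycle genes homology region (CHR), the letters TTTGAA near the start site bound by the LIN54 subunit of MuvB, and CCAAT boxes bound by NF-Y. RefSeq promoters on GRCm38.p6, the assembly of mm10, running from 250 bases before to 50 after the start site, were matched for 42 of the 51 genes. Of these, 40 lay within 100 bases of the 5′ end of the deposited transcript, all but Kif2c and Pttg1. The 6 promoters printed 5′ to 3′ span the observed range: Cdc20, Aurka, Plk1 and Nuf2, which fell, and Ndc80 and Kif18a, which rose. Capitals mark TTTGAA and CCAAT on either strand, so that TTCAAA and ATTGG are the same motifs on the opposite strand.
Cdc20 (chr4:118437294-118437593, minus strand): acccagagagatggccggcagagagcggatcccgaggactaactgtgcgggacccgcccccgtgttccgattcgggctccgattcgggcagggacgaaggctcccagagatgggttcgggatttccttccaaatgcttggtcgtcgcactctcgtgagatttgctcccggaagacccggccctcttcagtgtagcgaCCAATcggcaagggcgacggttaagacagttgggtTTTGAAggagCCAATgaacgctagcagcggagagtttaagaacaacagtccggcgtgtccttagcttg
Aurka (chr2:172370521-172370820, minus strand): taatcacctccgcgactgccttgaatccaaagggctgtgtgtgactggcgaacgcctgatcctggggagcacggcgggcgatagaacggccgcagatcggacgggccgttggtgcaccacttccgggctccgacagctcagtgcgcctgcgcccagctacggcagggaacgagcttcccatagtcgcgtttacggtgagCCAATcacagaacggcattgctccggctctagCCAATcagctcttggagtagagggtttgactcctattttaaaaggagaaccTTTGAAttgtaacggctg
Plk1 (chr7:122159185-122159484, plus strand): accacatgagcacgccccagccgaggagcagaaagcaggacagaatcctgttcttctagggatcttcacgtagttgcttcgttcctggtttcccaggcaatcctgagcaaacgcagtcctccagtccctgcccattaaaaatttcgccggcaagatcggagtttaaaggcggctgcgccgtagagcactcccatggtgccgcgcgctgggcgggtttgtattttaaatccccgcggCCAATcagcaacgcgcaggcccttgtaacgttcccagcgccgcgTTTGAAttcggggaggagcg
Nuf2 (chr1:169531415-169531714, minus strand): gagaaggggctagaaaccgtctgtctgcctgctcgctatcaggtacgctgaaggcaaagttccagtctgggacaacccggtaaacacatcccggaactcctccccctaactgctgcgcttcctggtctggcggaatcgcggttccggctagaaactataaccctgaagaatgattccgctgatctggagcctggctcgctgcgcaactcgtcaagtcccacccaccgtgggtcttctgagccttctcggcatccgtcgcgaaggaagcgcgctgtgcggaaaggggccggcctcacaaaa
Ndc80 (chr17:71526808-71527107, minus strand): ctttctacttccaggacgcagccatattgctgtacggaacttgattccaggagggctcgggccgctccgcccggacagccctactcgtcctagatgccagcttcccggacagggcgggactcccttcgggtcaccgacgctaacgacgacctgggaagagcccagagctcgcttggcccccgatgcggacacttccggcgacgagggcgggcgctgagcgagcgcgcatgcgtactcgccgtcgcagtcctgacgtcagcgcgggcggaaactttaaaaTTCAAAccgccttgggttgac
Kif18a (chr2:109280488-109280787, plus strand): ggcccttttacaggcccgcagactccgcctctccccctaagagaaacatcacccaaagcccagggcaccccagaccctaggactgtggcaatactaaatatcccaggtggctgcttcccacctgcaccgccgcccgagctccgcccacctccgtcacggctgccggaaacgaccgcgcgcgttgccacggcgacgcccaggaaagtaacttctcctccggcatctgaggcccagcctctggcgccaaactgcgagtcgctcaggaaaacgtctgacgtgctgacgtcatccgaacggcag

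TTTGAA was found in 31 of the 42 promoters (73.8%), against 11.8% of the 8772 tested genes with a promoter and 17.9% of all 32851 promoters in the table. Of the 41 matches, 30 lay within 50 bases of the start site, a range that takes in all of the window after it. Positions were not counted in the promoters of other genes, so this number has no background. CCAAT was also found in 31 of 42, against 39.2% of tested genes and 37.4% of all promoters. At least 2 CCAAT matches were found in 21 of 42, against 15.7% of tested genes and 11.7% of all promoters. The variant TTCGAA was found in 4 of 42, against 2.21% of tested genes. None of the 42 held an E4BP4 D-box in the spellings TTACGTAA, TTATGTAA, TTACATAA or TTATATAA, which 0.707% of tested genes and 1.59% of all promoters held. Motifs were searched on both strands, and 1 pair of different motifs overlapped, in Cdca8.

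The motifs were spread over genes that fell and genes that did not pass. Mitosis genes with TTTGAA had a median log2 fold change of −0.27 and those without it −0.16. With TTTGAA and TTCGAA counted as one motif the order turned, at −0.26 with a match and −0.30 without. For CCAAT the medians were −0.28 with a match and −0.15 without. For at least 2 CCAAT matches they were −0.30 and −0.15. None of these differences was tested. In Cdc20 the TTTGAA began 18 bases before the start site (−18) between 2 CCAAT boxes, and in Aurka and Plk1 it began 33 and 31 bases after it. Nuf2, which fell, and Kif18a, which rose, held neither motif, and Ndc80 held TTTGAA on the opposite strand with no CCAAT. Top2a and Mki67, which did not pass, each held 2 TTTGAA matches. A match is a description of these letters in this window and not a site shown to be bound.

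**Figure D3:**
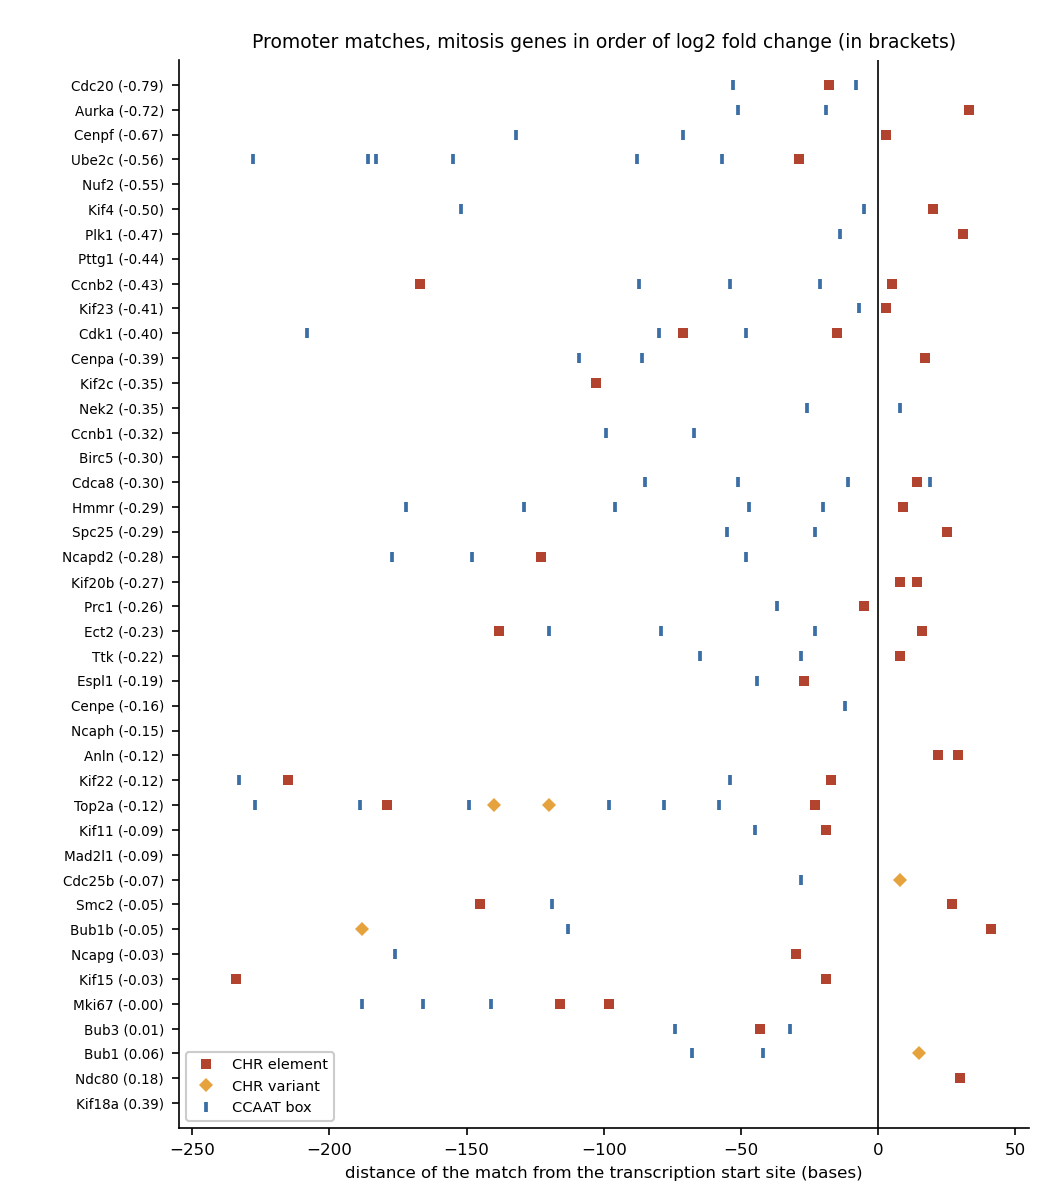
Positions of CHR and CCAAT matches relative to the transcription start site (bases, horizontal axis) in the 42 mitosis genes with a RefSeq promoter, ordered from the largest fall at the top to the largest rise at the bottom. Of the 41 TTTGAA matches, 30 lie within 50 bases of the start site, among genes near 0 as well as among those that fell. The window ends 50 bases after the start site, and positions in other promoters were not counted.

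Genes of mitotic entry fell in 8 of 10 cases, against 23.4% of all genes tested, with a median log2 fold change of −0.36. None rose, against 26.7% of all genes, and no role group was tested as a set. Aurka (chr2:172356190-172370570 in mm10) encodes the Aurora A kinase of centrosomes and spindle poles. It measured 43.5, 45.2 and 43.9 TPM in the knockout-labelled libraries, against 72.8, 75.02 and 73.3 TPM in the controls (log2 fold change −0.72, SE 0.0367, adjusted p = 4.61e-07). The groups were far apart relative to their spread, and the mean was 40.0% lower under the knockout label. Plk1 encodes the Polo-like kinase that acts in centrosome maturation and mitotic entry. It measured 46.1, 45.4 and 45.7 TPM in the knockout-labelled libraries, against 64.0, 61.9 and 65.8 TPM in the controls (log2 fold change −0.47, SE 0.0383, adjusted p = 9.24e-06). Plk1 lies on chromosome 7, where the other 873 tested genes had a median log2 fold change of 0.24, so relative to its chromosome its difference was −0.72. Nek2 encodes a centrosomal kinase. It measured 35.1, 36.9 and 36.0 TPM in the knockout-labelled libraries, against 43.7, 48.8 and 46.1 TPM in the controls (log2 fold change −0.35, SE 0.0481, adjusted p = 0.000257).

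Cdk1, the kinase that drives entry into mitosis, measured 41.0, 41.4 and 43.8 TPM in the knockout-labelled libraries, against 58.4, 54.7 and 54.0 TPM in the controls (log2 fold change −0.40, SE 0.0453, adjusted p = 7.92e-05). Its cyclin partners moved the same way. Ccna2 encodes the cyclin A2 of S and G2 phase. It measured 118.5, 119.0 and 122.2 TPM in the knockout-labelled libraries, against 157.8, 154.0 and 156.7 TPM in the controls (log2 fold change −0.38, SE 0.0333, adjusted p = 1.49e-05). Ccnb1 encodes cyclin B1. It measured 38.0, 36.1 and 35.2 TPM in the knockout-labelled libraries, against 45.003, 46.9 and 44.9 TPM in the controls (log2 fold change −0.32, SE 0.0432, adjusted p = 0.000256). Ccnb2 encodes cyclin B2. It measured 81.4, 78.8 and 82.8 TPM in the knockout-labelled libraries, against 105.4, 107.3 and 115.6 TPM in the controls (log2 fold change −0.43, SE 0.0438, adjusted p = 3.91e-05). In each of these 4 genes every knockout-labelled library was below every control, and the means were 20.0% to 26.0% lower.

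The CDC25 phosphatases, which remove inhibitory phosphates from CDK1, were not alike. Cdc25c measured 10.4, 8.64 and 10.8 TPM in the knockout-labelled libraries, against 12.3, 13.7 and 12.7 TPM in the controls (log2 fold change −0.35, SE 0.0801, adjusted p = 0.00522); it was the least abundant of the 51 under the knockout label and rested on about 309.3 and 366.0 reads per library in the 2 groups. Cdc25b averaged 37.1 ± 1.20 TPM in the knockout-labelled libraries and 38.9 ± 1.501 TPM in the controls (SD, n = 3 each), and the groups overlapped (adjusted p = 0.249). Foxm1 encodes the forkhead factor that activates many G2 and M phase promoters. It measured 28.4, 26.1 and 29.1 TPM in the knockout-labelled libraries, against 27.1, 30.6 and 28.0 TPM in the controls. Its groups overlapped, with a log2 fold change of −0.03 (SE 0.0584, 95% interval −0.16 to 0.10, adjusted p = 0.658), and the sign turned without knockout-labelled replicate 2 (0.01) or control replicate 2 (0.02).

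Genes of the checkpoint and anaphase fell in 5 of 9 cases, with a median log2 fold change of −0.19, and none rose. The shares over all genes tested were 23.4% lower and 26.7% higher. Cdc20 (chr4:118432901-118437343) encodes the activator of the anaphase-promoting complex that the checkpoint holds inactive. It measured 49.4, 48.4 and 49.6 TPM in the knockout-labelled libraries, against 87.8, 85.4 and 84.6 TPM in the controls (log2 fold change −0.79, SE 0.0356, adjusted p = 2.04e-07). It had the lowest log2 fold change of the 51, and its mean was 42.8% lower. Ube2c encodes the ubiquitin-conjugating enzyme of the complex. It measured 167.1, 167.2 and 182.5 TPM in the knockout-labelled libraries, against 267.6, 238.8 and 256.5 TPM in the controls (log2 fold change −0.56, SE 0.0516, adjusted p = 2.03e-05). Pttg1 encodes securin, which restrains separase until anaphase. It measured 97.8, 92.3 and 90.1 TPM in the knockout-labelled libraries, against 132.1, 126.5 and 122.1 TPM in the controls (log2 fold change −0.44, SE 0.0444, adjusted p = 3.72e-05). Its partner Espl1, separase, averaged 20.1 ± 0.945 TPM in the knockout-labelled libraries and 23.01 ± 0.918 TPM in the controls (SD, n = 3 each), a smaller fall of 0.19 on the log2 scale (adjusted p = 0.0128), and the call was lost without knockout-labelled replicate 2 (adjusted p = 0.0520).

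Of the checkpoint proteins that signal unattached kinetochores, 1 of 5 passed, and a second, Mad2l1, passed in 2 of the 16 other fits. Over all genes tested 50.1% passed and 23.4% fell, so 1 lower gene of 5 is near the share of all genes that fell. Ttk, the MPS1 kinase at the head of the checkpoint, averaged 33.3 ± 1.09 TPM in the knockout-labelled libraries and 38.9 ± 1.41 TPM in the controls (adjusted p = 0.00265; SD, n = 3 each). Bub1, a kinase that recruits other checkpoint proteins, averaged 65.8 ± 2.30 TPM in the knockout-labelled libraries and 63.0 ± 1.42 TPM in the controls, with overlapping groups (95% interval of the log2 fold change −0.03 to 0.15, adjusted p = 0.218). Bub3, the adaptor that binds phosphorylated KNL1, averaged 117.5 ± 3.55 TPM in the knockout-labelled libraries and 116.5 ± 1.12 TPM in the controls (95% interval −0.07 to 0.09). Bub1b, which encodes BUBR1, averaged 56.2 ± 1.20 TPM in the knockout-labelled libraries and 58.1 ± 2.40 TPM in the controls (95% interval −0.14 to 0.05), and Mad2l1, which encodes the CDC20-binding protein MAD2, averaged 128.4 ± 3.66 TPM in the knockout-labelled libraries and 136.3 ± 4.46 TPM in the controls (95% interval −0.17 to 0.00). Mad2l1 was lower on the deposited log2 values (adjusted p = 0.0138) and in limma-voom (adjusted p = 0.0415). Its adjusted p in the authors' deposited table was 0.0176. Within a library, Cdc20 stood at 0.409, 0.410 and 0.436 times the TPM of Bub3 in the knockout-labelled libraries and at 0.762, 0.730 and 0.722 times in the controls, a pair chosen after the values were seen and given without a test.

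All 4 genes of the chromosomal passenger complex fell, against 23.4% of all genes tested, with a median log2 fold change of −0.30. Aurkb encodes the Aurora B kinase that corrects faulty attachments. It measured 55.8, 55.7 and 59.1 TPM in the knockout-labelled libraries, against 67.4, 68.6 and 70.5 TPM in the controls (log2 fold change −0.27, SE 0.0400, adjusted p = 0.0004). Incenp encodes its scaffold. It measured 71.3, 70.5 and 73.2 TPM in the knockout-labelled libraries, against 85.2, 89.2 and 89.0 TPM in the controls (log2 fold change −0.29, SE 0.0370, adjusted p = 0.000169). Cdca8 encodes borealin. It measured 71.4, 70.9 and 71.5 TPM in the knockout-labelled libraries, against 90.6, 86.7 and 87.4 TPM in the controls (log2 fold change −0.30, SE 0.0351, adjusted p = 8.65e-05). Birc5 encodes survivin, which with borealin places the complex at centromeres. It measured 84.5, 81.7 and 83.8 TPM in the knockout-labelled libraries, against 104.0, 95.8 and 109.9 TPM in the controls (log2 fold change −0.30, SE 0.05002, adjusted p = 0.000784). The intervals of the 4 fold changes overlapped one another. Of the 2 Aurora kinases, Aurka stood at 0.779, 0.812 and 0.743 times the TPM of Aurkb under the knockout label and at 1.08, 1.09 and 1.04 times in the controls, given as a description.

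Kinetochore genes were divided, with 4 of 7 lower, 1 higher and a median log2 fold change of −0.29. That is 57.1% and 14.3% of them, beside 23.4% and 26.7% of all genes tested. Cenpf (chr1:189640614-189688086) encodes a large outer kinetochore protein. It measured 18.7, 19.6 and 18.1 TPM in the knockout-labelled libraries, against 25.6, 34.4 and 32.4 TPM in the controls (log2 fold change −0.67, SE 0.0938, adjusted p = 0.000283). Control replicate 1 was the lowest control and still above every knockout-labelled library, and without it the log2 fold change was −0.80. Cenpe encodes the kinesin that carries chromosomes to the spindle equator. It measured 45.2, 45.2 and 44.8 TPM in the knockout-labelled libraries, against 42.9, 54.9 and 54.4 TPM in the controls, so control replicate 1 fell below all knockout-labelled libraries and limma made no call (adjusted p = 0.137, log2 fold change −0.16). Without control replicate 1 Cenpe was called lower (log2 fold change −0.27, adjusted p = 0.000322), as it was in 3 of the 16 other fits in all. Cenpa encodes the histone variant that marks centromeres. It measured 62.8, 61.3 and 62.1 TPM in the knockout-labelled libraries, against 81.2, 81.6 and 82.0 TPM in the controls (log2 fold change −0.39, SE 0.0338, adjusted p = 1.39e-05), with little spread in either group.

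Long transcripts were lower in control replicate 1 than in the other 2 controls in general. Over other tested genes of at least 5000 bases, the median of control replicate 1 minus the mean of controls 2 and 3 was −0.12 on the log2 scale, against 0.04 for those below 1500 bases. For the 8 mitosis genes of at least 5000 bases, Cenpf, Cenpe and Mki67 among them, the same median was −0.16. Over those other long genes the median log2 fold change between groups was 0.08, and below 1500 bases it was −0.02. With the length trend of the other genes subtracted, an alternative chosen after seeing the data and with no test, the log2 fold change was −0.78 for Cenpf, −0.32 for Kif20b, −0.18 for Top2a and −0.11 for Mki67. The median over the 51 genes was then −0.28.

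The 4 subunits of the NDC80 complex, which joins microtubules to the kinetochore as a single rod, did not move together. Nuf2 measured 53.7, 51.1 and 47.2 TPM in the knockout-labelled libraries, against 70.7, 76.0 and 76.8 TPM in the controls (log2 fold change −0.55, SE 0.0538, adjusted p = 3.03e-05), and Spc25 measured 78.0, 75.3 and 77.5 TPM in the knockout-labelled libraries, against 97.6, 93.2 and 91.6 TPM in the controls (log2 fold change −0.29, SE 0.0383, adjusted p = 0.00021). Ndc80 (chr17:71496100-71526857), the direct partner of Nuf2, measured 66.6, 69.7 and 65.0 TPM in the knockout-labelled libraries, against 55.5, 60.5 and 61.9 TPM in the controls, with every knockout-labelled library above every control (log2 fold change 0.18, SE 0.0490, adjusted p = 0.0142). Spc24 averaged 31.3 ± 1.75 TPM in the knockout-labelled libraries and 33.1 ± 1.31 TPM in the controls (SD, n = 3 each) and did not pass (adjusted p = 0.246). Ndc80 thus stood at 1.24, 1.36 and 1.38 times the TPM of Nuf2 in the knockout-labelled libraries and at 0.785, 0.796 and 0.806 times in the controls, so the order of the 2 subunits turned. That ratio was chosen after the values were seen, and the call for Ndc80 alone was lost without knockout-labelled replicate 2 (adjusted p = 0.0573).

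**Figure D4:**
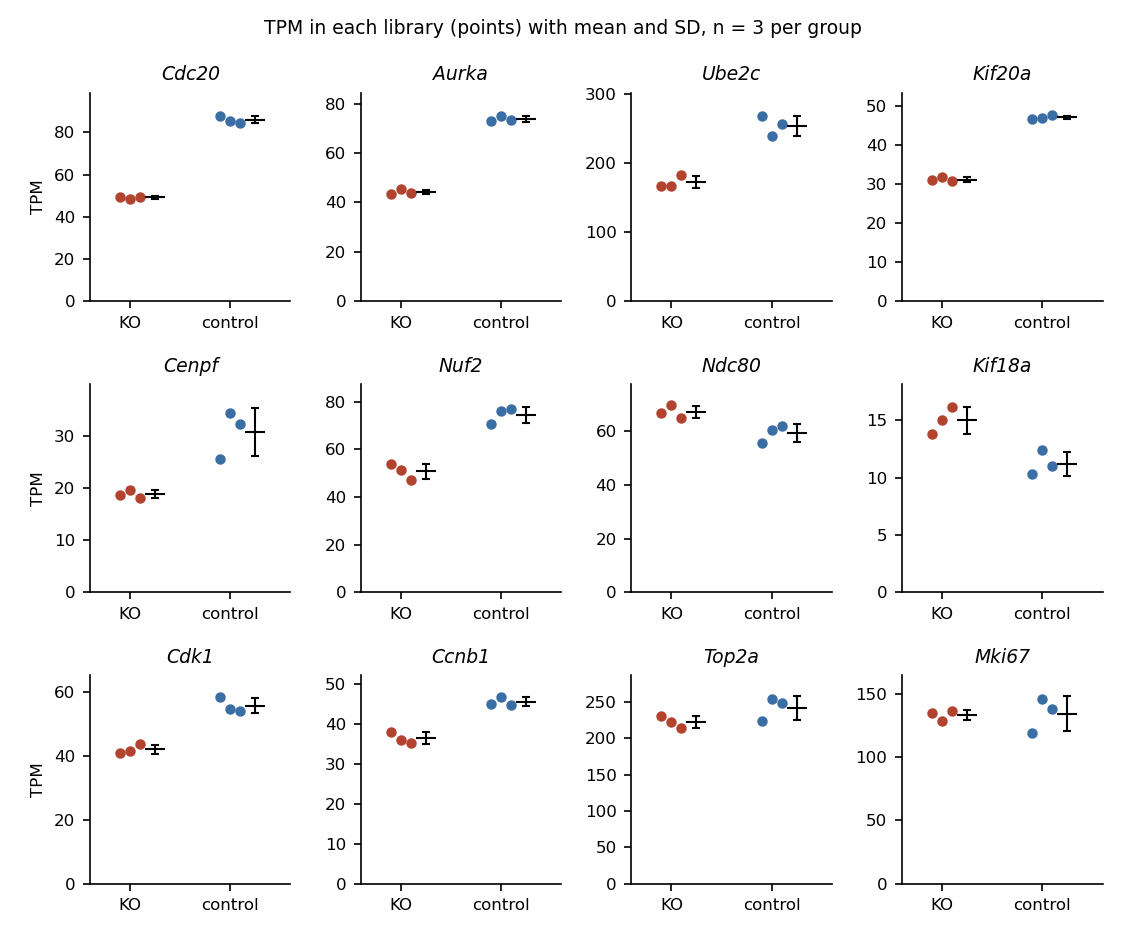
TPM of 12 mitosis genes in each library (points; knockout-labelled, KO, at left, controls at right) with the mean and SD of each group beside them (n = 3), on axes that start at 0. The groups are apart in the top row and for Cdk1 and Ccnb1, Nuf2 and Ndc80 move in opposite directions, Kif18a is higher under the knockout label, and Top2a and Mki67 overlap between groups.

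Spindle motors and assembly factors fell in 4 of 7 cases, rose in 1 and had a median log2 fold change of −0.12. The shares were 57.1% lower and 14.3% higher, beside 23.4% and 26.7% of all genes tested. Tpx2 encodes the protein that activates Aurora A on spindle microtubules. It measured 71.9, 70.1 and 70.5 TPM in the knockout-labelled libraries, against 90.5, 94.7 and 94.7 TPM in the controls (log2 fold change −0.39, SE 0.0362, adjusted p = 1.99e-05). Kif2c encodes the microtubule-depolymerising kinesin MCAK. It measured 25.3, 24.8 and 25.1 TPM in the knockout-labelled libraries, against 32.3, 32.1 and 32.5 TPM in the controls (log2 fold change −0.35, SE 0.0384, adjusted p = 5.87e-05). Hmmr encodes a microtubule-associated protein of spindle poles. It measured 59.5, 59.9 and 60.1 TPM in the knockout-labelled libraries, against 71.7, 77.0 and 71.8 TPM in the controls (log2 fold change −0.29, SE 0.0399, adjusted p = 0.000254). These 3 showed no overlap between groups and an SD of at most 3.03 TPM within either.

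Kif18a, the kinesin that dampens chromosome movement at the metaphase plate (chr2:109280738-109341746), was the mitosis gene with the highest log2 fold change. It measured 13.8, 15.1 and 16.2 TPM in the knockout-labelled libraries, against 10.3, 12.4 and 10.999 TPM in the controls (log2 fold change 0.39, SE 0.0761, adjusted p = 0.00215). Although it was among the least abundant of the 51, it rested on about 813.7 reads per library under the knockout label and 552.7 in the controls. Kif11, the motor that separates spindle poles, averaged 65.0 ± 1.46 TPM in the knockout-labelled libraries and 69.2 ± 2.39 TPM in the controls and Kif15, which acts beside it, averaged 31.8 ± 1.02 TPM in the knockout-labelled libraries and 32.4 ± 0.223 TPM in the controls (SD, n = 3 each), and neither passed (adjusted p = 0.0902 for Kif11 and 0.63 for Kif15). Kif11 was called lower in 5 of the 16 other fits (adjusted p of 0.0209 to 0.0345 in those). Kif22, a chromosome-arm kinesin, averaged 37.2 ± 1.82 TPM in the knockout-labelled libraries and 40.5 ± 0.770 TPM in the controls (SD, n = 3 each) and passed narrowly (adjusted p = 0.048). It lies on chromosome 7, and its call was lost without any 1 of 5 libraries, namely knockout-labelled replicates 1 and 2 and all 3 controls (adjusted p up to 0.202). Kif22 kept its call in 8 of the 16 other fits.

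Genes of the central spindle and cytokinesis fell in 6 of 7 cases, against 23.4% of all genes tested. Their median log2 fold change was −0.27. Kif20a encodes the kinesin MKLP2 that brings the passenger complex to the midzone. It measured 30.9, 31.7 and 30.7 TPM in the knockout-labelled libraries, against 46.7, 46.8 and 47.6 TPM in the controls (log2 fold change −0.58, SE 0.0375, adjusted p = 2.23e-06). GENCODE M21 places 1271 exon bases of Kif20a, 29.3% of its exon sequence, over exons of Cdc23 on the opposite strand, and Cdc23 averaged 20.1 ± 1.02 TPM in the knockout-labelled libraries and 22.4 ± 0.986 TPM in the controls (SD, n = 3 each). Since counting by strand is not stated, reads of the 2 genes could not be told apart there. Kif4 encodes a chromokinesin that works with Prc1. It measured 17.96, 17.4 and 17.6 TPM in the knockout-labelled libraries, against 23.05, 26.5 and 26.7 TPM in the controls (log2 fold change −0.50, SE 0.0595, adjusted p = 0.000103), and shares 832 exon bases with Pdzd11 on the opposite strand. Such overlaps also touched Ube2c (592 bases, Tnnc2), Ccna2 (510, Exosc9), Cdc25c (623, Gm3550), Prc1 (911, Rccd1), Ncapg (944, Lcorl) and, over 53 bases, Cdc20 (Elovl1). Further overlaps included Nek2 (298 bases), Cdca8 (232) and Plk1 (156), and, on the same strand, Ncapd2 (237 and 235) and Top2a (122). Among the overlapping genes tested, log2 fold changes included 0.40 for Rccd1, 0.28 for Lcorl, 0.02 for Exosc9, −0.32 for Pdzd11 and −0.47 for Elovl1. The overlaps were counted over the exons of all GENCODE transcripts of a gene, while TPM rested on 1 RefSeq transcript per symbol. How the overlaps bear on the values of the mitosis genes was not tested.

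Kif23, the kinesin MKLP1 of the centralspindlin complex, measured 27.4, 26.7 and 26.2 TPM in the knockout-labelled libraries, against 33.8, 36.8 and 37.1 TPM in the controls (log2 fold change −0.41, SE 0.0477, adjusted p = 9.27e-05). Kif20b encodes another kinesin of late mitosis. It measured 29.0, 29.3 and 28.5 TPM in the knockout-labelled libraries, against 32.8, 37.5 and 35.2 TPM in the controls (log2 fold change −0.27, SE 0.0518, adjusted p = 0.00194). Prc1 encodes the protein that bundles the antiparallel microtubules of the midzone. It measured 69.6, 64.9 and 67.6 TPM in the knockout-labelled libraries, against 77.7, 82.9 and 81.3 TPM in the controls (log2 fold change −0.26, SE 0.0419, adjusted p = 0.000765), and on chromosome 7 its difference relative to its chromosome was −0.50. In all 3 the groups did not overlap. Ect2, the exchange factor that activates RhoA at the cleavage furrow, averaged 36.9 ± 0.472 TPM in the knockout-labelled libraries and 43.6 ± 0.115 TPM in the controls (SD, n = 3 each, adjusted p = 0.000548), whereas Anln, anillin of the contractile ring, averaged 53.8 ± 1.40 TPM in the knockout-labelled libraries and 58.7 ± 3.40 TPM in the controls, with 1 control below a knockout-labelled library (adjusted p = 0.0594). Anln was called lower in 6 of the 16 other fits (adjusted p of 0.0051 to 0.0473 in those).

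Genes of chromosome structure fell in 3 of 7 cases, with none higher and a median log2 fold change of −0.12. Over all genes tested the shares were 23.4% lower and 26.7% higher. Top2a encodes the topoisomerase that untangles sister chromatids. It measured 230.8, 222.6 and 214.1 TPM in the knockout-labelled libraries, against 223.6, 254.0 and 248.9 TPM in the controls. Control replicate 1 lay within the range of the knockout-labelled libraries, and the gene did not pass (log2 fold change −0.12, SE 0.0522, adjusted p = 0.0825, unadjusted 95% interval −0.24 to −0.00), but it was called lower without control replicate 1 (adjusted p = 0.00551) and in the limma-voom fit on recovered reads (adjusted p = 0.00629). Mki67 encodes the Ki-67 antigen used to mark cycling cells. It measured 135.1, 128.7 and 136.1 TPM in the knockout-labelled libraries, against 118.8, 145.8 and 138.0 TPM in the controls. The knockout-labelled libraries lay inside the range of the controls (log2 fold change −0.00, SE 0.0671, adjusted p = 0.957, 95% interval −0.16 to 0.15), and the sign turned in 3 fits with a library left out, to between 0.02 and 0.06. Mki67 lies on chromosome 7, and relative to its chromosome its difference was −0.25.

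Condensin, the ring complex that compacts chromosomes, had subunits that passed and subunits that did not. The log2 fold change was on the lower side for each, and differences between subunits were not tested. Ncapd2 of condensin I measured 46.5, 45.4 and 48.4 TPM in the knockout-labelled libraries, against 55.7, 59.1 and 55.9 TPM in the controls (log2 fold change −0.28, SE 0.0424, adjusted p = 0.000505). Ncaph, the kleisin of the same complex, averaged 40.7 ± 0.999 TPM in the knockout-labelled libraries and 45.3 ± 1.68 TPM in the controls (adjusted p = 0.0151; SD, n = 3 each) and Ncapg averaged 61.3 ± 1.76 TPM in the knockout-labelled libraries and 62.7 ± 1.38 TPM in the controls (95% interval of the log2 fold change −0.12 to 0.05). Of the ATPase subunits shared by both condensins, Smc4 averaged 133.0 ± 0.409 TPM in the knockout-labelled libraries and 146.5 ± 7.63 TPM in the controls (adjusted p = 0.0224) and Smc2 averaged 69.8 ± 1.71 TPM in the knockout-labelled libraries and 72.6 ± 4.22 TPM in the controls (adjusted p = 0.366). The call for Ncaph was lost without knockout-labelled or control replicate 2 (adjusted p up to 0.0595). That for Smc4 was lost without knockout-labelled replicate 1 or 2 or control replicate 2 or 3 (adjusted p up to 0.0863). It was also lost in limma without the mean-variance trend (adjusted p = 0.0552), and was kept in 11 of the 16 other fits.

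The order of the levels shifted at the top of the list. In the knockout-labelled libraries Top2a was the highest of the 51 at 222.5 ± 8.37 TPM, followed by Ube2c at 172.3 ± 8.83 TPM, with no overlap between the 2 genes. In the controls Ube2c stood first at 254.3 ± 14.5 TPM and Top2a second at 242.1 ± 16.3 TPM, with overlapping values. Ccna2 stood at 119.9 ± 2.001 TPM under the knockout label, behind Mki67, Smc4 and Mad2l1, and at 156.2 ± 1.97 TPM in the controls, ahead of all 3. At the low end, Cdc25c, Kif18a, Kif4 and Cenpf lay below 20 TPM under the knockout label and Kif18a, Cdc25c, Espl1 and Kif4 were lowest in the controls. The median level over the 51 genes was 50.7 TPM in the knockout-labelled libraries and 62.7 TPM in the controls.

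Other genes of mitosis, from lists of the same pathway, were divided. Of 45 other regulators and spindle genes, 23 fell (51.1%) and 7 rose (15.6%), with a median log2 fold change of −0.11. Fam83d, a spindle protein, fell to 5.02 ± 0.280 TPM under the knockout label, against 9.98 ± 0.767 TPM in the controls (SD, n = 3 each, adjusted p = 9.4e-06). Troap, a microtubule-associated protein, averaged 14.4 ± 0.259 TPM in the knockout-labelled libraries and 22.3 ± 0.564 TPM in the controls, and Ccnf, cyclin F, averaged 25.6 ± 0.475 TPM in the knockout-labelled libraries and 37.9 ± 1.91 TPM in the controls. Of 32 other kinetochore genes 8 fell and 7 rose (median −0.05), which is 25.0% and 21.9% of the list beside 23.4% and 26.7% of all genes tested. Cenpl of the inner kinetochore averaged 14.2 ± 0.309 TPM in the knockout-labelled libraries and 21.4 ± 0.399 TPM in the controls, while Oip5, which helps load CENP-A, averaged 18.6 ± 0.857 TPM in the knockout-labelled libraries and 13.0 ± 1.38 TPM in the controls and Spdl1, spindly, averaged 56.2 ± 3.38 TPM in the knockout-labelled libraries and 41.1 ± 0.939 TPM in the controls.

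Of 16 genes of the anaphase-promoting complex and its regulators 4 fell (25.0%) and 2 rose (12.5%), with a median of −0.09. Of all genes tested, 23.4% fell and 26.7% rose. Fzr1, the CDH1 activator, averaged 30.6 ± 0.598 TPM in the knockout-labelled libraries and 40.4 ± 1.97 TPM in the controls, the inhibitor Fbxo5, EMI1, averaged 33.0 ± 1.24 TPM in the knockout-labelled libraries and 39.3 ± 1.95 TPM in the controls, and the core subunit Cdc16 averaged 38.1 ± 0.752 TPM in the knockout-labelled libraries and 30.6 ± 1.38 TPM in the controls, which was higher. Among 19 genes of MuvB, B-MYB and the E2F family 6 fell (31.6%) and 2 rose (10.5%), with a median of −0.07. E2f7, a repressing E2F, averaged 2.81 ± 0.217 TPM in the knockout-labelled libraries and 5.18 ± 0.0566 TPM in the controls, E2f2 averaged 12.9 ± 0.358 TPM in the knockout-labelled libraries and 19.6 ± 1.27 TPM in the controls and Mybl2, B-MYB, averaged 25.1 ± 0.814 TPM in the knockout-labelled libraries and 32.4 ± 1.03 TPM in the controls, all lower under the knockout label (SD, n = 3 each). Of 45 DNA replication genes 21 fell (46.7%) and 8 rose (17.8%), with a median of −0.08. In that list Ccne2, cyclin E2, averaged 17.4 ± 0.316 TPM in the knockout-labelled libraries and 24.1 ± 0.768 TPM in the controls, Slbp, which binds histone mRNA, averaged 34.9 ± 0.895 TPM in the knockout-labelled libraries and 47.6 ± 2.12 TPM in the controls, and Prim2, a primase subunit that was higher, averaged 63.2 ± 2.44 TPM in the knockout-labelled libraries and 48.9 ± 1.34 TPM in the controls. These lists are described by counts and medians beside those of all genes tested, and no difference between lists was tested.

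**Figure D5:**
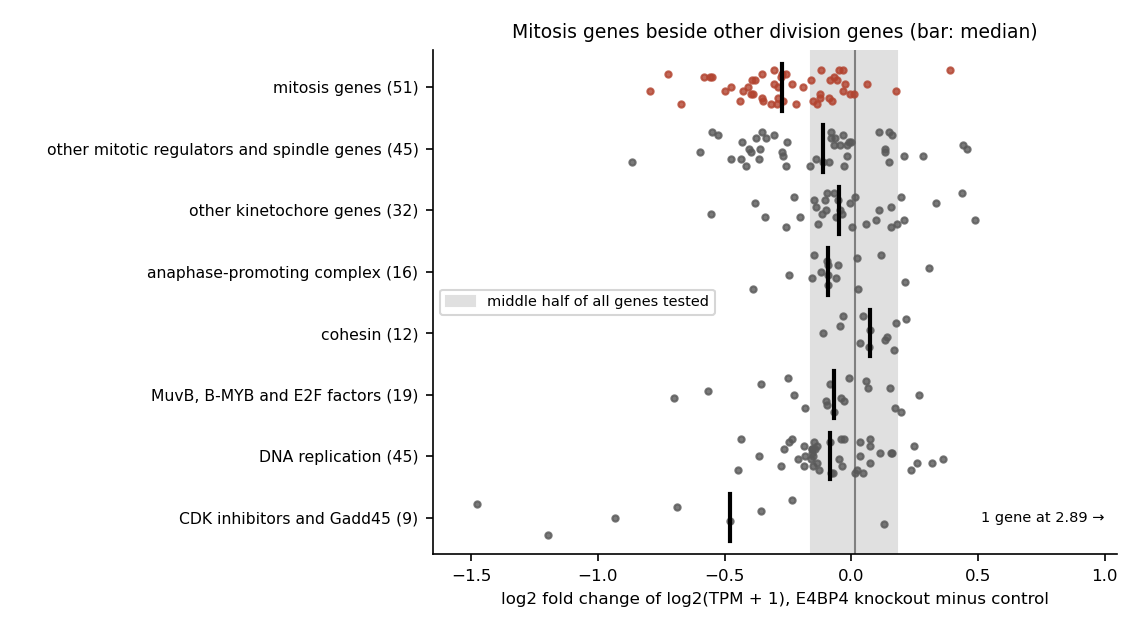
Log2 fold change of log2(TPM + 1), knockout-labelled minus control, for each tested gene of the 51 mitosis genes (red) and of 7 other lists (grey), with a black bar at each median and the number of tested genes in brackets; the band runs between the quartiles of all genes tested, and Gadd45a at 2.89 lies off the axis. The median of the 51 genes is −0.27, that of DNA replication −0.08 and that of cohesin 0.07.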

How the data were processed

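Per the submitters' processing notes, the mm10 build and the tools STAR 2.7.5a, HOMER 4.11.1, bcl2fastq and DESeq2 were used, in roles not given in the sources used here. Per the labels' protocols, libraries were made from polyadenylated RNA with a NEBNext Ultra RNA kit, and counting by strand is not stated. The authors deposited TPM values for 1 RefSeq transcript per symbol, and a second table with variance-stabilised log2 values, log2 fold changes and p-values of their own comparison. Genes reaching 1 TPM in at least 3 libraries were tested on log2(TPM + 1), a pseudocount of 1, with limma 3.58.1 (mean-variance trend, R 4.3.3, two-sided, no covariates), with Benjamini-Hochberg adjustment over all 11257 genes tested. Fold changes are of log2(TPM + 1), knockout minus control, and understate those of low genes. TPM times length fell within 0.1 of whole multiples of 1 step per library for 100% of values checked. These reads gave depth and a limma-voom alternative only. Intervals are for the difference between groups and rest on the spread between libraries within a group. For each gene limma draws that spread, and so the SE, toward a trend over all genes tested.

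The genes and all lists were chosen with earlier results of these data known. Values in every library are given for called mitosis genes whose log2 fold change reached 0.25 in size, and for Foxm1, Cdk1, Ccnb1, Top2a and Mki67; Cenpe and Ndc80 were added after their values were seen. From other lists up to 3 genes with the largest called changes are named. Alternatives were other pseudocounts, filters and scalings, the deposited log2 values, limma-voom, no trend, a replicate block, subtraction of chromosome and length medians, and each library left out. The limma step was tested on simulated data. The number of unused per-sample columns was 0. Promoters and exon overlaps came from RefSeq (GRCm38.p6) and GENCODE M21.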

Additional observations from a re-analysis of the deposited data

How the results depend on the processing

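In the 16 other fits, 30 to 39 mitosis genes were lower and 1 or 2 higher, beside 34 and 2. Over all genes those fits called 12.9% to 27.9% lower and 14.1% to 29.9% higher, beside 23.4% and 26.7%. The 27.9% came from limma-voom, with 39 mitosis genes lower, and the 12.9% from the fit without a filter, with 33. Leaving out 1 library at a time gave 30 to 38 lower and 1 to 2 higher. All genes then stood at 20.1% to 23.2% lower and 21.8% to 26.1% higher. Over all alternatives the median log2 fold change ran from −0.30 to −0.25. Of the 32 mitosis genes named by rule, 23 kept their direction and their side of the threshold, or moved by less than 1 SD where there was no test, under all 18 alternatives, among them Cdc20 (−0.83 to −0.71), Aurka (−0.76 to −0.65) and Kif18a (0.31 to 0.46). With a library left out, signs turned in Foxm1 (range −0.0695 to 0.0154) and Mki67 (−0.0895 to 0.0571), and the cause was not tested. The rise of Ndc80 was the call lost where 1 gene was higher, without knockout-labelled replicate 2. Not called in the reported fit, Anln was called lower in 6 of the 16 fits, Top2a and Kif11 in 5 each, Cenpe in 3, Mad2l1 in 2 and Smc2 in 1. The subtraction of a length trend was chosen after seeing the data. Same-numbered libraries did not deviate together (r of −0.01, −0.06 and 0.003), and the replicate block gave 33 lower and 2 higher mitosis genes and 5297 called genes in all, beside 5639, and ended only the call for Kif22 among the 51 genes. The least abundant genes, Cdc25c and Kif18a, averaged between 309.3 and 813.7 reads per library and group, and how depth bears on their errors was not tested.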

Other observations

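Cohesin, the ring that holds sister chromatids together, had no gene lower in limma, against 23.4% of all genes tested. Of 12 tested, 2 rose (16.7%, against 26.7% of all genes) and 10 did not pass, with a median log2 fold change of 0.07. Nipbl, the cohesin loader, averaged 23.6 ± 0.407 TPM in the knockout-labelled libraries and 20.2 ± 1.39 TPM in the controls (SD, n = 3 each, adjusted p = 0.00853), and Wapl, the release factor, averaged 42.8 ± 1.33 TPM in the knockout-labelled libraries and 37.8 ± 3.15 TPM in the controls (adjusted p = 0.0318). The inhibitors of cyclin-dependent kinases and the Gadd45 genes were mostly lower. Of 9 tested among 11 listed, 7 fell (77.8%) and 1 rose (11.1%). Gadd45a, whose product is known to bind CDK1, was the gene that rose and averaged 76.2 ± 7.27 TPM in the knockout-labelled libraries and 9.42 ± 0.756 TPM in the controls (adjusted p = 1.12e-08), while its relative Gadd45g averaged 2.41 ± 0.272 TPM in the knockout-labelled libraries and 8.51 ± 1.15 TPM in the controls. Cdkn2c, which encodes the INK4-type inhibitor p18, averaged 10.0 ± 0.596 TPM in the knockout-labelled libraries and 24.2 ± 0.966 TPM in the controls. Cdkn1a, which encodes p21, averaged 75.9 ± 1.71 TPM in the knockout-labelled libraries and 89.3 ± 0.895 TPM in the controls and was lower (adjusted p = 0.000478); it and Cdkn1b were named after their values were seen. Cdkn1b, p27, averaged 47.9 ± 2.64 TPM in the knockout-labelled libraries and 43.7 ± 2.27 TPM in the controls and did not pass. Cdkn2a and Cdkn2b were listed at 0 in all 6 libraries.

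The 51 mitosis genes lay on 16 chromosomes. On chromosome 7, where the other tested genes had a median log2 fold change of 0.24, the 5 mitosis genes had a median of −0.12. On chromosome 2, with 9 of the genes and a chromosome median of 0.01, 5 fell and 1 rose. Over all chromosomes, 23.4% of genes tested fell and 26.7% rose.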
